A study of Homo sapiens with 47 samples.

Results

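A set of 10 genes of the bone morphogenetic protein (BMP) pathway were followed through the differentiation of H9 (WA09) human embryonic stem cells, an established cell line: the secreted ligands BMP2, BMP4, BMP5, BMP6 and BMP7, and the secreted antagonists NOG, CHRD, GREM1, CHRDL1 and BMPER. They were chosen by name, not by their values, and are 10 of the 58051 genes listed for each library. RNA was sequenced from 47 samples. Whole cultures (35 libraries) came from undifferentiated cells in mTeSR1 (t0, n = 3), from neuromesodermal progenitor (NMP)-like cells after 36 h of CHIR-99021 (a WNT agonist), FGF2, AGN193109 (an inverse agonist of retinoic acid receptors) and Y-27632 (a ROCK inhibitor) in N2B27 without vitamin A (36 h, n = 3), and from pre-neural progenitor and neural crest (PNP/NC) cultures kept in the same medium for 10 passages (P1 to P10, n = 3 each, but n = 2 at P9). The other 12 libraries were cells enriched at P5 and P8 by selective detachment with TrypLE, as a mesenchymal fraction (MES, labelled as neural crest) and an epithelial fraction (EPI, labelled as PNPs), n = 3 each. No BMP protein or BMP inhibitor is among the supplements that the labels name. Libraries with one replicate number came from one differentiation, so that n counts differentiations of a single line, and 3 values in a row below are differentiations 1, 2 and 3 in that order.

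BMP ligands are secreted dimers that bind type I and type II serine/threonine kinase receptors, which phosphorylate SMAD1, SMAD5 and SMAD9; with SMAD4 these enter the nucleus and raise genes such as the ID and MSX families. Noggin (NOG), chordin (CHRD), gremlin 1 (GREM1) and chordin-like 1 (CHRDL1) bind ligands outside the cell and keep them from their receptors, and BMPER, a relative of chordin, can dampen or promote signalling. In the embryo, BMP from the dorsal neural tube and the overlying ectoderm patterns dorsal progenitors and acts in the formation and emigration of trunk neural crest, while antagonists are made by the node, the notochord and the tail end of the neural plate.

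Total expected counts per library lay between 13029491 and 64082859, with a median of 47292229. Labels were checked against marker genes. POU5F1, a pluripotency factor, had a mean of 1636 TPM (a level corrected for transcript length and library size) at t0, and the NMP markers TBXT and CDX2 rose at 36 h by 11.26 and 9.57 on the log2 scale (edgeR adjusted p = 2.0e-04 and 8.1e-05). The EPI fractions lacked the surface-epithelial markers CDH1 and ESRP1, at means of 0.12 and 0.16 TPM at P5, against 152 and 96.0 TPM at t0. The P5 MES fraction had a higher summed TPM of 8 neural crest markers (286 to 441) than the P5 EPI fraction (157 to 228). At P8 these sums overlapped, at 360, 504 and 945 TPM in MES and 211, 569 and 729 in EPI, and differentiation 2 went the other way. The P10 library of differentiation 1 stood apart from the other P10 libraries. Its 7 NMP markers summed to 220 TPM and its 6 neural progenitor markers to 218 TPM, against 4.19 and 3.08, and 5.10 and 2.91, in differentiations 2 and 3, and against at most 17.7 and 21.6 at P9. Results that rest on P10 are therefore given with and without it.

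Promoter sequence is shown for the 3 ligands that rose together between 36 h and P3 (below) and whose window held no annotated exon: the 250 bases before a RefSeq transcript start (GRCh38.p14), 5′ to 3′ on the gene's strand, from chr14:53955051-53955300 (minus strand, BMP4), chr6:55875591-55875840 (minus strand, BMP5) and chr6:7725849-7726098 (plus strand, BMP6). Windows were found for 7 of the 10 genes. Capitals mark matches, on either strand, to GGCGCC (a GC-rich SMAD element), CTTTGA (a TCF/LEF core) or TTTATG (a CDX core), motifs that do not overlap one another in these windows.
BMP4: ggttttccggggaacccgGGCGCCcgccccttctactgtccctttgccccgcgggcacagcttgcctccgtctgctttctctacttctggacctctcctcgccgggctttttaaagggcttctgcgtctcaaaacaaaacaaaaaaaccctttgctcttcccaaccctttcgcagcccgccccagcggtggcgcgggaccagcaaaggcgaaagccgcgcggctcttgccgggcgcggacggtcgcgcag
BMP5: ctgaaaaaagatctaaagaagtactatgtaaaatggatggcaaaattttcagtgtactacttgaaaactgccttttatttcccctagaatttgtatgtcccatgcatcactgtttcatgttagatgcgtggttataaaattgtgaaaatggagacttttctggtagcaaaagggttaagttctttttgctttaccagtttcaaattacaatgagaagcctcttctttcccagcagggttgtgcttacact
BMP6: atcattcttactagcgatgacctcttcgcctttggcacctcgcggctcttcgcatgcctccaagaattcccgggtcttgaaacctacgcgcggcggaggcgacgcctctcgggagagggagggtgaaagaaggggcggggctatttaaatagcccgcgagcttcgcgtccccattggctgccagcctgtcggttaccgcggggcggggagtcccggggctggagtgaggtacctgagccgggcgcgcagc
The BMP4 window shown held 1 match, GGCGCC 232 bases before the start, and the BMP5 and BMP6 windows held none. Other BMP4 windows, at chr14:53954489-53954738 and chr14:53953396-53953645, overlapped annotated exons and held no match. Of all 35114 windows of this length, 16.4% held GGCGCC, 11.2% CTTTGA and 9.6% TTTATG. The windows differed in base composition, with 63.6% G or C for BMP4, 35.6% for BMP5 and 64.4% for BMP6, against a median of 58.0% over all windows.

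All members changed across the 12 time points. Each of the 10 passed the test for any difference among them, with adjusted p-values from 3.1e-09 (BMP4) to 0.0014 (CHRDL1) in edgeR's quasi-likelihood test. Of all 21750 genes tested, 39.1% passed. Without differentiation 2, and also without differentiation 3, 7 members passed, while all genes passing fell from 8503 to 2817 and to 3529. When at least 10 counts were required in every library, 8 members and 7868 genes passed. A gene was called where its adjusted p was under 1%, its fold change at least 2 and its mean over the compared libraries at least 100 normalized counts (counts scaled by library, not by gene length). In bulk RNA, fewer cells that express a gene cannot be told apart from less RNA of it per cell, which holds for every value below.

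**Figure D1:**
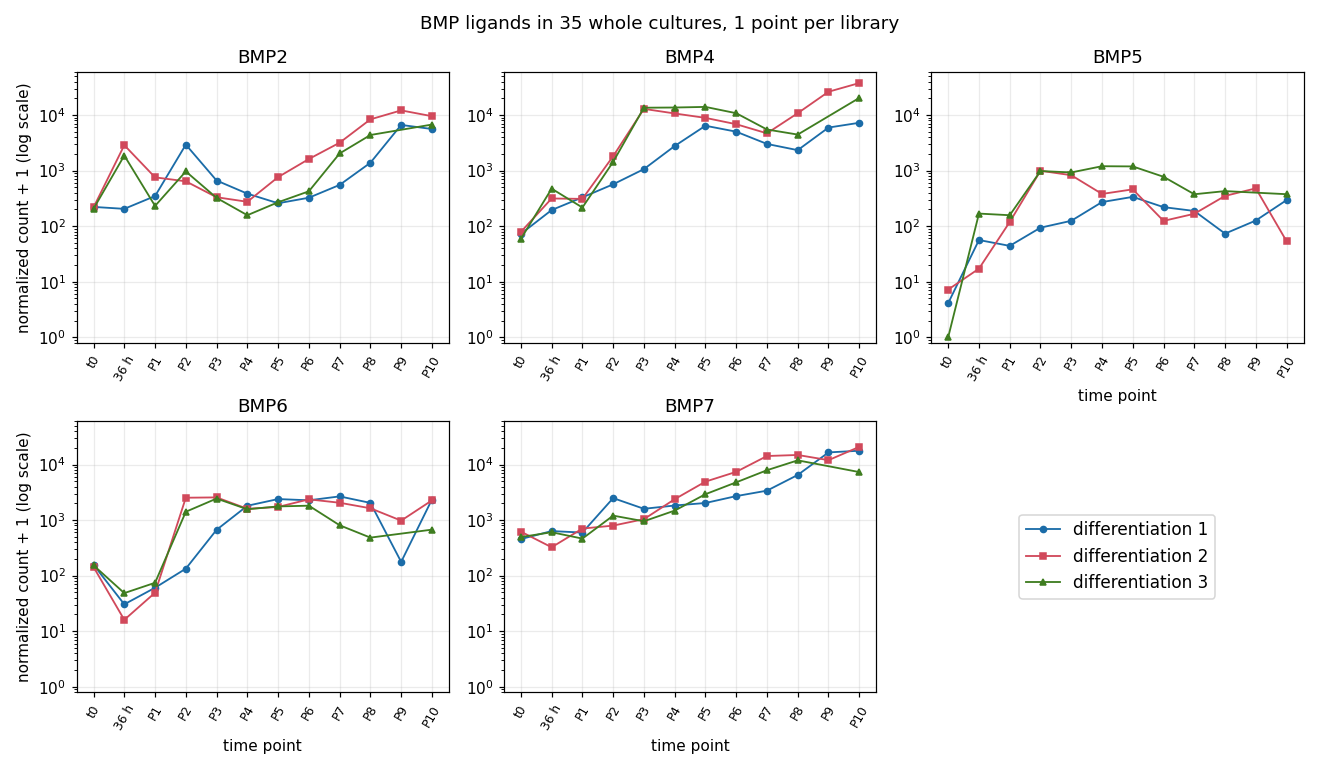
Normalized counts plus 1 on a log scale for the 5 ligands at each time point, 1 point per library, with a line for each differentiation (P9 has no point for differentiation 3). BMP4 sat between 57.9 and 77.7 at t0 and between 7264 and 37722 at P10, while BMP6 at P3 was at 668 in differentiation 1 and at 2563 and 2443 in differentiations 2 and 3.

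BMP4 (chr14:53949736-53958761, minus strand; coordinates of genes are from GENCODE 29 on GRCh38), a dorsalizing and crest-inducing ligand, reached the highest level of the ligands. It had 71.6, 77.7 and 57.9 normalized counts at t0, 194, 314 and 472 at 36 h, 566, 1818 and 1437 at P2, 1063, 12932 and 13570 at P3, and 6426, 8906 and 14036 at P5. Differentiations 2 and 3 were already at their P5 level by P3, whereas differentiation 1 was about an order of magnitude lower at P3 and came closer by P5. From P5 the level went down to 3022, 4692 and 5499 at P7, then reached 5958 and 26308 at P9 and 7264, 37722 and 20349 at P10, the highest value of each differentiation among whole cultures. In TPM, BMP4 took 65.7% to 80.5% of the summed level of the 5 ligands at P5, from 12.5% to 12.7% at t0.

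BMP7 (chr20:57168748-57266629, minus strand), a ligand that often pairs with BMP2 or BMP4, was the main ligand of the undifferentiated cells. It made up 51.2% to 58.6% of summed ligand TPM at t0, with 6.62, 8.54 and 6.05 TPM. At P8 BMP4 took 30.1%, 44.5% and 31.7% of that sum, and BMP7 took 45.0%, 35.3% and 50.4%. Normalized counts of BMP7 were 455, 620 and 494 at t0, 1598, 1039 and 952 at P3, 2032, 4930 and 2926 at P5, 6500, 14891 and 11917 at P8 and 17749, 20833 and 7327 at P10. The 3 P8 values were above all P5 values. An antisense gene, BMP7-AS1, overlaps BMP7, and whether reads were counted by strand is not given in the sources used here.

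BMP2 (chr20:6767664-6780280, plus strand), the closest relative of BMP4, had a brief early level and a sustained late one. At 36 h it had 204, 2872 and 1868 normalized counts against 221, 217 and 205 at t0, so that differentiation 1 did not share the early level, and reached 2936 only at P2. It lay between 156 and 384 at P4 and between 258 and 764 at P5. From there it went to 1384, 8376 and 4377 at P8, 6646 and 12148 at P9 and 5611, 9551 and 6748 at P10.

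BMP5 (chr6:55753645-55875564, minus strand) and BMP6 (chr6:7726797-7881422, plus strand) belong to the BMP7 subgroup. BMP5 was close to nothing at t0, with 3.11, 6.22 and 0 normalized counts, and had 92.9, 993 and 982 at P2 and 124, 826 and 926 at P3. The whole cultures of differentiation 1 never passed 336, the P5 value. BMP6 had 156, 142 and 152 normalized counts at t0 and 29.5, 15.0 and 47.5 at 36 h, then 133, 2529 and 1413 at P2 and 668, 2563 and 2443 at P3. The 36 h values lay below all t0 values, and differentiation 1 was again the lowest at P2 and P3, though not at P5 (2393, 1725 and 1762).

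**Figure D2:**
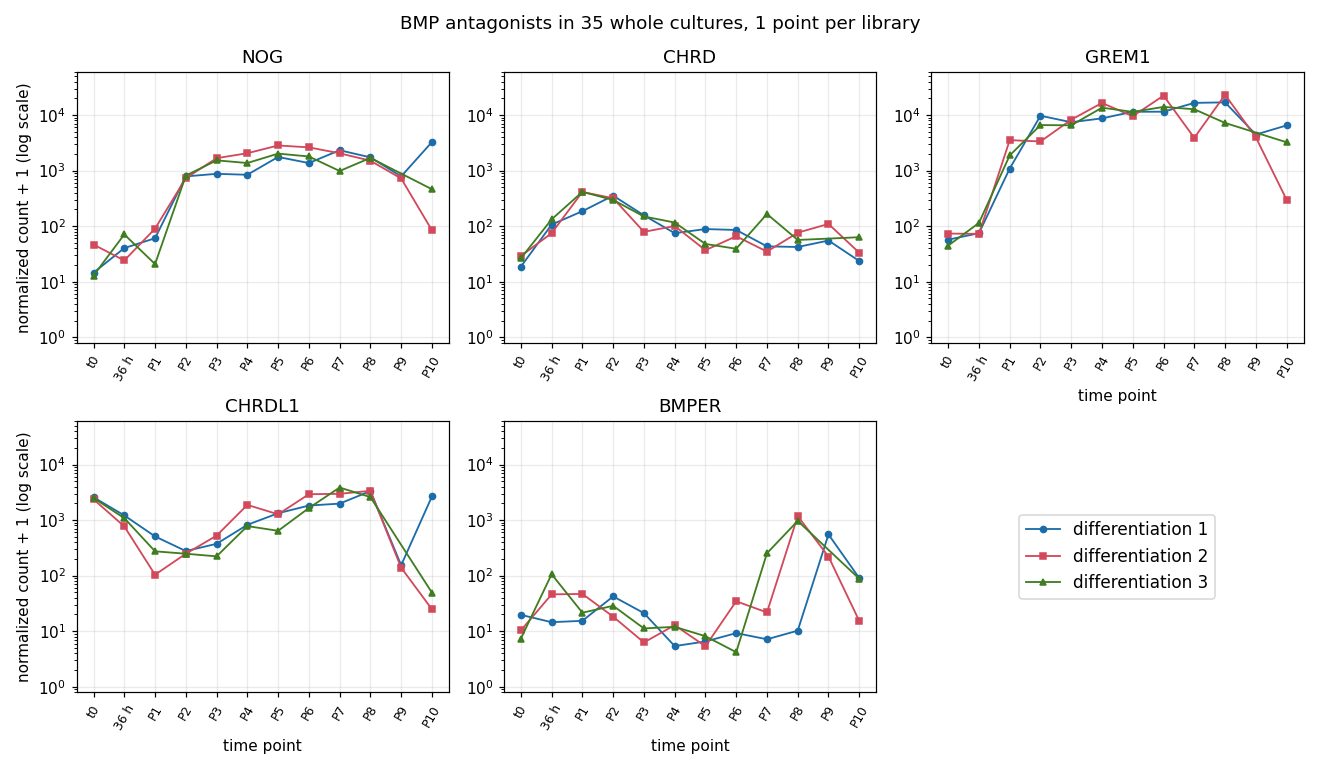
Normalized counts plus 1 on a log scale for the 5 antagonists at each time point, 1 point per library, with a line for each differentiation (P9 has no point for differentiation 3). At P10, NOG, GREM1 and CHRDL1 of differentiation 1 lay above those of differentiations 2 and 3, with CHRDL1 at 2666 against 23.8 and 48.5.

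Among the antagonists, GREM1 (chr15:32717974-32745107, plus strand) reached the highest levels. It had 56.1, 72.5 and 43.6 normalized counts at t0 and 73.7, 71.6 and 113 at 36 h. At P1 it had 1089, 3536 and 1878, when NOG had at most 89.3 and BMP6 at most 73.4, and at P5 it had 11476, 9534 and 11405, with little spread. The lncRNA gene AC090877.2 lies opposite GREM1, with the same limit on strand as for BMP7.

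NOG (chr17:56593699-56595590, plus strand) was low until P1 (59.6, 89.3 and 19.7 normalized counts) and had 786, 730 and 810 at P2, the same step in all 3 differentiations, including differentiation 1, where BMP4 and BMP6 came later. It stood at 1761, 2833 and 2023 at P5. CHRD (chr3:184380073-184390736, plus strand) had its highest values early, at P1 or P2 in each differentiation. It had 17.7, 28.0 and 25.4 normalized counts at t0, 185, 412 and 414 at P1, 353, 317 and 295 at P2, and between 35.9 and 87.7 at P5. THPO overlaps CHRD on the other strand.

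CHRDL1 (chrX:110673856-110795819, minus strand) had a U-shaped course. It was the only one of the 10 genes whose t0 values lay above all of its 36 h to P5 values: 2577, 2368 and 2503 normalized counts at t0, 276, 247 and 247 at P2, and 3328, 3365 and 2597 at P8. BMPER (chr7:33904308-34156356, plus strand) lay between 4.35 and 7.12 normalized counts at P5, and had 9.22, 1177 and 966 at P8. Differentiation 1 reached 551 only at P9, and BMPER was at 89.5, 14.3 and 86.9 at P10.

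By TPM, the order of the genes at P5 was BMP4 (171 to 363 over the 3 libraries), GREM1 (111 to 126), BMP7 (29.4 to 82.6), NOG (41.1 to 66.9), BMP6 (27.4 to 37.5), CHRDL1 (9.21 to 19.0), BMP5 (3.67 to 13.0), BMP2 (3.10 to 9.30), CHRD (0.54 to 1.65) and BMPER (0.13 to 0.30). BMP4 and GREM1 were clear of their neighbours, and BMPER was clear of CHRD. Neighbours whose ranges overlapped were BMP7 and NOG, CHRDL1 and BMP5, and BMP5 and BMP2. NOG lay above BMP6, BMP6 above CHRDL1 and BMP2 above CHRD, in every library. At t0 the first place was held by CHRDL1, with 33.1, 28.9 and 30.8 TPM.

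The exit from pluripotency into NMP-like cells (36 h against t0) changed none of the 10 members by the full call, where 2.71% of 21750 genes were called. In edgeR 5 members and 5677 of the 21750 genes had an unadjusted p under 0.05. DESeq2 called 2 members, where it called 4.05% of genes. BMP5 and CHRD met the significance and fold thresholds with log2 changes of 4.50 ± 1.07 (SE) and 2.12 ± 0.51, both at an adjusted p of 0.0068, and missed the minimum mean level, at 41.4 and 63.7. BMP2 (2.76 ± 0.76) and BMP4 (2.12 ± 0.58) were at adjusted p = 0.017. BMP6 was the only one of these 5 members that went down (-2.20 ± 0.79, edgeR adjusted p = 0.07). Over the alternatives, the adjusted p ranged from 6.5e-04 to 0.35 for BMP2 and from 0.0028 to 0.32 for BMP4, and both were called when differentiation 1 was left out, where 3.96% of genes were.

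In the wider pathway, of a fixed list of 11 BMP targets, 3 rose and none fell, where 2.71% of all genes were called in either direction. The 589 genes called at this step became 83 without differentiation 2 and 92 without differentiation 3. MSX1, a homeobox target of dorsal neural tissue, had 19.7, 23.8 and 13.5 normalized counts at t0 and 208, 2108 and 7634 at 36 h (log2 change 7.21 ± 0.85, adjusted p = 3.5e-06). MSX2 rose by 4.52 ± 0.94 and ATOH8 by 3.09 ± 0.40 on the log2 scale. Of 18 other antagonists and modulators, 2 rose and none fell: follistatin (FST), which binds activins and some BMPs, by 5.93 ± 0.96, and KCP by 1.72 ± 0.41. Of 8 SMAD genes, SMAD1 rose by 1.08 ± 0.21, while no receptor of 9 tested and no other ligand of 6 tested was called. The median log2 change was 1.11 for the targets, 2.12 for the 5 member ligands, 1.06 for the 5 member antagonists and 0.00 for all genes. Markers of other cell types moved in the same libraries. The 4 paraxial mesoderm markers summed to 7.11, 9.12 and 9.45 TPM at t0 and to 8.81, 132 and 631 at 36 h, with MSGN1 called higher, an order of differentiations that MSX1 shared. GATA4, an endoderm marker, had 38.1, 382 and 773 normalized counts at 36 h, from at most 3.11. Of the same list, SOX17 was at 0 in every t0 and 36 h library. FOXA2 was between 6.35 and 14.5 at t0 and between 10.8 and 429 at 36 h. The 5 mesenchymal markers summed to between 180 and 222 TPM at t0 and to between 627 and 1530 at 36 h. Their part in the changes of the members and targets was not tested.

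Between 36 h and P3, as NMP-like cells became PNP/NC cultures, 5 of the 10 members rose and none fell, against 2.88% of all genes tested that rose (6.93% called in either direction). They were 3 ligands and 2 antagonists. GREM1 had the highest log2 change, 6.43 ± 0.82 (SE), with an adjusted p of 5.7e-06 in edgeR, followed by BMP6 at 5.87 ± 0.88 (3.8e-05), NOG at 4.90 ± 0.85 (1.7e-04), BMP4 at 4.56 ± 0.61 (9.4e-06) and BMP5 at 2.96 ± 0.83 (0.0099). For GREM1, NOG, BMP4 and BMP6 all 3 P3 values lay above all 36 h values. BMP5 in differentiation 1 was 124 at P3, below the 167 of differentiation 3 at 36 h, and its call was lost without differentiation 2 (adjusted p = 0.12), without differentiation 3 (0.086), without the block on differentiation (0.035), with no count filter (0.012) and with DESeq2's size factors (0.01, just over the threshold), over a range of 6.3e-04 to 0.12. BMP6 without differentiation 2 (adjusted p = 0.016; range 1.2e-13 to 0.016) and NOG without differentiation 3 (0.012; range 2.5e-09 to 0.012) also lost their calls. BMP7 (1.19 ± 0.47, adjusted p = 0.062) and BMP2 (-1.63 ± 0.74, adjusted p = 0.1) did not pass, but BMP2 was called lower without differentiation 1 (-2.76), where 4.07% of genes were.

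At the same step 4 of 11 targets rose: TFAP2A, a neural crest and ectoderm factor, by 5.45 ± 1.33 (adjusted p = 0.0035), MSX2 by 3.01 ± 0.75, HEY1 by 2.18 ± 0.56 and ATOH8 by 1.48 ± 0.36. GDF10, a divergent ligand of the family, rose by 4.51 ± 0.66, the only one of 6 other ligands tested that did. The type I receptor BMPR1B rose by 2.45 ± 0.36, and BMP1, a protease that cleaves chordin, by 1.31 ± 0.26. FST fell by 5.54 on the log2 scale (adjusted p = 1.4e-04), from 29404, 41096 and 27744 to 1635, 242 and 542 normalized counts. The median log2 change was 2.96 for the 5 member ligands, 0.34 for the 5 member antagonists, 1.81 for the targets and -0.02 for all genes. Marker levels moved too: the mesenchymal list of 5 genes summed to between 627 and 1530 TPM at 36 h and to between 1261 and 3187 at P3, and the epithelial list of 4 genes to between 334 and 636 and to between 2.95 and 24.8. All 4 epithelial markers and 4 of 5 pluripotency markers fell, and TWIST1 and PRRX1 of the mesenchymal list, PAX3 and TFAP2A of the 8 neural crest markers and LMX1B of the roof plate list rose, the last from at most 14.7 normalized counts to 136, 4593 and 7433. GATA4 and KDR, of the endoderm and endothelial lists, fell, as did CDX1 and WNT8A of the 7 NMP markers. Their part in the members' changes was not tested.

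From P3 to P5 no member was called, and 0.0138% of all genes were. In edgeR 2 members and 1545 of 21750 genes had an unadjusted p under 0.05. The 2 members were BMP7 (1.43 ± 0.47) and CHRD (-1.10 ± 0.48), and DESeq2 called no member. From P5 to P8 no member was called, at 0.00920% of genes. An unadjusted p under 0.05 in edgeR was reached by 2892 of 21750 genes and by 3 members. These were BMPER (6.83 ± 1.43, adjusted p = 0.042), BMP2 (3.42 ± 0.77, 0.055) and BMP7 (1.75 ± 0.47, 0.094). DESeq2 called these 3, where it called 0.713% of genes. Without differentiation 1, in which BMPER was still at 9.22 at P8, edgeR called BMP2 (3.65) and BMPER (7.57), where 0.445% of genes were called. No gene of the other ligands, modulators, receptors, SMADs or targets passed in either interval.

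At the last passages 3 antagonists lay below every P8 library in all or most P9 and P10 libraries, though none passed the test with all libraries (below). NOG had 1731, 1508 and 1693 normalized counts at P8, 786 and 721 at P9 and 3265, 83.5 and 461 at P10. GREM1 had 16942, 23234 and 7221 at P8, 4461 and 3983 at P9 and 6510, 299 and 3239 at P10. CHRDL1 went from 3328, 3365 and 2597 at P8 to 153 and 138 at P9 and 2666, 23.8 and 48.5 at P10. For all 3, both P9 values lay below every P8 value, and the P10 library of differentiation 1 was the highest of its group.

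With all libraries, no member was called for P10 against P8, where 0.0874% of genes were, all of them higher. In edgeR 4 members and 3571 of 21750 genes had an unadjusted p under 0.05, and DESeq2 called no member. The log2 changes of these 4 members were 1.86 ± 0.53 for BMP4 (edgeR adjusted p = 0.067), -2.29 ± 0.68 for GREM1 (0.078), -3.39 ± 1.21 for BMPER (0.15) and -2.11 ± 0.90 for CHRDL1 (0.24). NOG was at -0.44 ± 0.73 (0.83). Without the P10 library of differentiation 1, 3 antagonists were called lower, where 3.87% of genes were called and 1.99% were called lower: CHRDL1 by -6.32 (adjusted p = 1.1e-06), GREM1 by -3.21 (0.0075) and NOG by -2.63 (0.0083). BMP4 (2.09, adjusted p = 0.016) and BMPER (-4.08, 0.058) were not called there. BMP2, BMP7 and CHRD were at 0.77, 0.43 and -0.63 with that library and at 0.80, 0.24 and -0.39 without it, and BMP5 and BMP6, at 0.11 and 0.33 with it, were at -0.96 and -0.08 without it. Markers moved in the same fit: LIN28A (-8.11), SOX2 (-7.55), CDX2 (-6.02), FOXD3 (-5.78) and SOX9 (-4.41) were called lower. KDR (3.94) was called higher, and so was TFAP2A (3.77), of the neural crest list that holds FOXD3 and SOX9. None of these was called with all libraries. TEK, of the same endothelial list as KDR, was at -2.40 and not called (edgeR adjusted p = 0.012). The library left out was set apart by NMP and neural progenitor sums that include CDX2 and SOX2. The calls of CDX2 and SOX2 are therefore not independent of its removal. NOG, GREM1 and CHRDL1 were also the highest of their group in that library (above), so their calls depend on its removal too. Without it the number of all genes called went from 19 to 839. The part of the named markers in the antagonists' changes was not tested. Over all alternatives the adjusted p ranged from 1.1e-06 to 0.88 for CHRDL1, from 0.0075 to 0.64 for GREM1 and from 0.0083 to 1 for NOG. Leaving out differentiation 1 as a whole gave calls for BMP4 (1.94), CHRDL1 (-6.30) and BMPER (-4.60), where 4.08% of genes were called.

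The comparison of P9 with P8 was added after the P9 values had been seen. No member passed, against 1.22% of genes. In edgeR 3 members and 5710 of 21750 genes had an unadjusted p under 0.05. Of these members BMP4 was at 1.53 ± 0.57 (adjusted p = 0.087) and GREM1 at -1.93 ± 0.77 (0.11). CHRDL1 came nearest, at -4.56 ± 1.17 (adjusted p = 0.017; range 2.0e-04 to 0.13), and DESeq2 called it, where it called 3.77% of genes. Of the 11 targets, 5 rose and none fell, where 0.887% of all genes rose. The 265 genes called here became 15 without the block, and 0, and so no target, when differentiation 2 or differentiation 3 was left out. MSX2 rose by 4.90 ± 0.84 (adjusted p = 0.0022), from 572, 928 and 1079 normalized counts at P8 to 22099 and 13222 at P9. TFAP2A rose by 4.76 ± 1.09, and ID1, an immediate BMP target that holds back differentiation, by 4.23 ± 0.67 (adjusted p = 0.0018), from 483, 819 and 2210 normalized counts to 14394 and 12054. The other two were ID3 (2.24 ± 0.39) and ATOH8 (1.99 ± 0.39). BAMBI, a decoy receptor that is itself a BMP target, rose by 5.52 ± 0.86 (0.0018), and of the 18 modulators NBL1 (3.43 ± 0.73) and CRIM1 rose too. RGMA, a BMP co-receptor, fell by 4.37 on the log2 scale (0.0046), while ACVR1, a type I receptor, rose by 1.32 ± 0.27 and SMAD6, an inhibitory SMAD, by 2.00 ± 0.39. The median log2 change from P8 to P9 was 0.59 for the 5 member ligands, -1.24 for the 5 member antagonists, 2.42 for the targets and -0.01 for all genes. For P10 against P8 with all libraries, the only called gene of these lists was BAMBI (4.34 ± 0.78, adjusted p = 0.0096), with 642, 9051 and 19302 normalized counts at P10, differentiation 1 being the lowest there as well. Without that library, in a fit of the lists added after seeing the data, 5 of the 11 targets rose and none fell, where 1.88% of genes rose: GATA2, MSX2 (4.33 ± 0.73, adjusted p = 2.8e-04), TFAP2A, ID1 (3.29 ± 0.57, 4.2e-04) and ID3. Of the other lists BAMBI (4.88 ± 0.70), NBL1, FSTL3, ACVR1 and SMAD7 rose, and RGMA (-5.18 ± 0.46) and ACVR2B fell.

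Other markers moved between the same libraries. From P8 to P9 the summed TPM of 6 neural progenitor markers went from between 107 and 342 to between 15.5 and 21.6, and that of 5 mesenchymal markers from between 1229 and 2900 to between 3978 and 4804. The 4 roof plate markers, MSX1 among them, went from between 195 and 255 TPM to 905 and 704, and the 7 NMP markers from between 60.7 and 402 to 10.8 and 17.7. MSX1, also on the target list, made up most of the roof plate sum, at means of 164 TPM at P8 and 686 at P9. LMX1B was at 50.4 and 119 TPM. LMX1A and WNT1 went the other way, from means of 1.27 and 0.79 TPM to 0.06 and 0.00. LIN28A fell by 8.29 on the log2 scale and TWIST1 rose by 3.89. Of 3 lateral plate markers FOXF1 rose, from at most 5.19 normalized counts at P8 to 828 and 32.5 at P9, and the list summed to between 0.09 and 5.05 TPM at P8 and to between 3.41 and 17.3 at P9. The list of 4 endothelial markers summed to between 2.18 and 10.4 TPM and to between 7.72 and 16.6, with none called, although KDR was at 32.6 to 86.5 normalized counts at P8 and at 827 and 1575 at P9. TEK of the same list went the other way in value, from 198, 1083 and 161 to 146 and 194, PECAM1 was at 1.15 and 184 at P9, and CDH5 was at most 13.8 in these libraries. The 3 amnion and trophoblast markers summed to between 49.9 and 94.1 TPM at P8 and to between 34.5 and 89.3 at P9, while GATA3, at 0 in every P8 library, had 171 and 57.9 normalized counts. SOX17 and FOXA2, defining endoderm markers, were at or near 0 TPM at P8 to P10. Their part in the changes of the members was not tested.

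**Figure D3:**
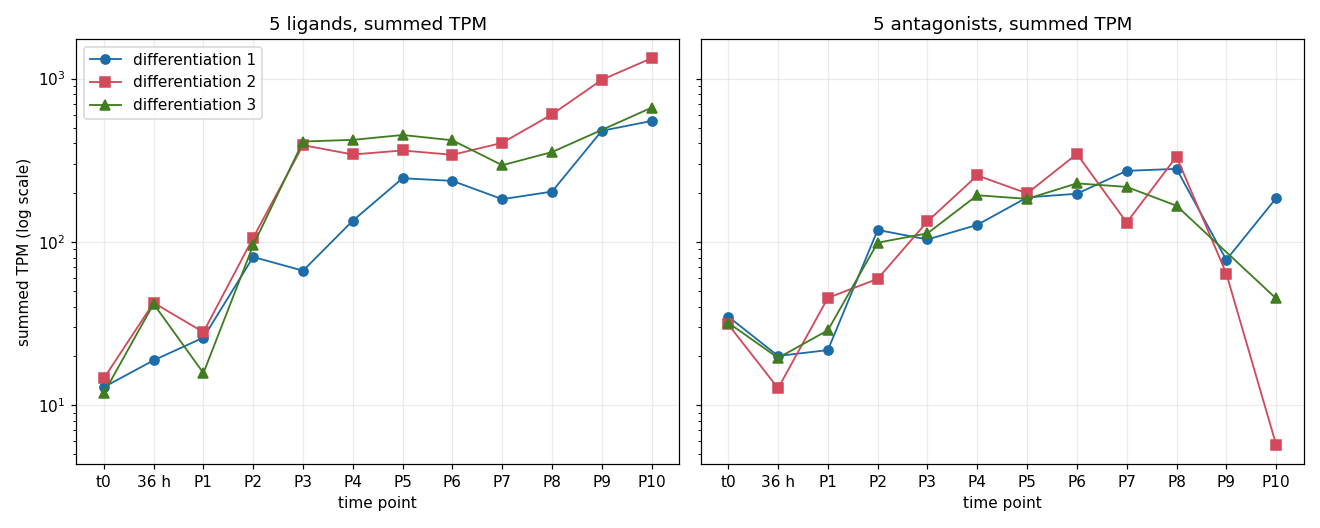
Summed TPM of the 5 ligands (left) and of the 5 antagonists (right) on a log scale at each time point, 1 point per library, with a line for each differentiation (P9 has no point for differentiation 3). The ligand sum climbed from between 11.8 and 14.6 at t0 to between 550 and 1332 at P10, while the antagonist sum went from between 166 and 333 at P8 to between 63.9 and 77.6 at P9.

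Summed by role, the ligands had 12.9, 14.6 and 11.8 TPM at t0 and the antagonists 34.8, 31.2 and 31.9, of which CHRDL1 was nearly all. From P2 to P8 both sums were within the same order of magnitude, and the log2 ratio of ligands to antagonists lay between -0.55 and 0.84 at P2 and between -0.46 and 1.09 at P8. At P9 it was 2.63 and 3.94, and at P10 it was 1.57, 7.86 and 3.88. Every P9 and P10 library except that of P10 differentiation 1 lay above all earlier whole cultures (the highest of those was 1.87, in P3 differentiation 3). Among the fractions, the log2 ratio was 2.135, 1.751 and 2.819 in P5 MES and -0.532, 1.18 and 3.046 in P8 MES. Some MES values were thus above the lower P9 value, while no EPI library was above 1.685. The ratio is of RNA levels of genes picked by name, and no test was run on it. It leaves out the 18 other antagonists and modulators, among them FST and NBL1, which moved over the course (above).

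The fractions of P5 and P8 addressed which cells of the mixed cultures carried these transcripts. At P5, BMP4 had 2256, 5875 and 9273 normalized counts in EPI and 20058, 16257 and 19203 in MES, and BMP5 had 132, 288 and 726 in EPI and 781, 1028 and 2025 in MES. Both were higher in MES in every differentiation, and the groups did not overlap. NOG had 2054, 2997 and 2986 in EPI and 1266, 1876 and 860 in MES, GREM1 had 11907, 11966 and 14084 against 9091, 9071 and 5434, and CHRDL1 had 1462, 1638 and 1084 against 573, 787 and 201. These 3 antagonists were lower in MES in every differentiation, again without overlap of the groups. Not every member of a role went the same way. The antagonist CHRD was higher in MES in all 3 pairs, by 0.42, 0.84 and 0.17 on the log2 scale, and the ligand BMP2 was lower in all 3, by -0.01, -0.58 and -1.65. The ligand BMP7 was lower in MES in all 3 pairs by a fitted -0.12 ± 0.09, BMP6 was higher in 1 pair (-0.09 ± 0.23), and BMPER was higher in 2 at very low counts.

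None of the 10 members reached the 1% threshold in the fit of 12 fractions, and none of the 18885 genes tested did (0.00%), though 4894 genes and 4 members had an unadjusted p under 0.05 in edgeR. The log2 differences of MES from EPI were 2.07 ± 0.48 for BMP4 (adjusted p = 0.038), 1.91 ± 0.49 for BMP5 (0.05), -1.64 ± 0.35 for CHRDL1 (0.032), -1.03 ± 0.36 for NOG (0.12) and -0.84 ± 0.49 for GREM1 (0.33). BMP4, BMP5 and CHRDL1 passed at a 5% threshold, where 2.66% of genes did, and in DESeq2 at 1%, where 3.57% of genes did. Over the alternatives the adjusted p ranged from 5.6e-05 to 0.29 for BMP4, from 9.0e-04 to 0.28 for BMP5 and from 5.4e-05 to 0.37 for CHRDL1. The fit of 12 fractions blocked on differentiation over both passages, not on each pair of fractions. A fit of the P5 fractions alone, added after seeing the data, also called 0 genes. The marker lists moved with the fractions at P5: neural crest markers are given above, and 6 neural progenitor markers summed to between 186 and 305 TPM in EPI and to between 34.5 and 108 in MES.

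**Figure D4:**
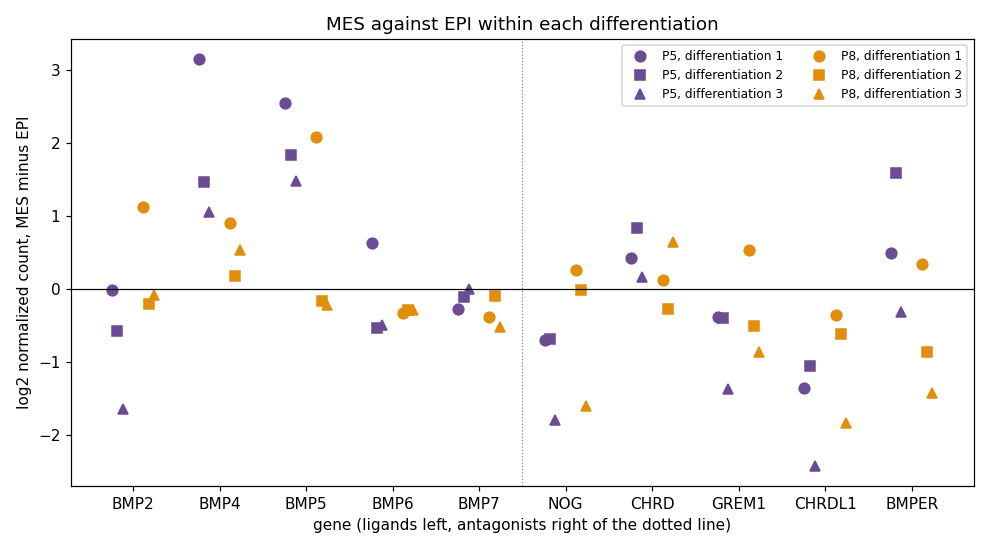
Difference of log2 normalized counts, MES minus EPI, of each gene within each differentiation at P5 and at P8, 1 point per pair of fractions. At P5 all 3 pairs were above 0 for BMP4 and BMP5 and below 0 for NOG, GREM1 and CHRDL1. At P8 the BMP4 pairs lay between 0.18 and 0.90, and those of BMP5, NOG and GREM1 lay on both sides of 0.

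The whole culture of P5 lay between its fractions in all 3 differentiations for BMP4, BMP5, BMP6, NOG, GREM1 and CHRDL1. At P8 none of the 10 genes lay between its fractions in all 3 differentiations, and whole-culture BMP4 of differentiation 3 (4456) was below both of its fractions. BMP4 had 2139, 10629 and 10257 in EPI and 3983, 12019 and 14819 in MES (0.48 ± 0.45, edgeR adjusted p = 0.7), with MES higher in each pair but the groups overlapping. CHRDL1 was lower in MES in each pair (-0.85 ± 0.34, 0.39), and so was BMP7 (-0.32 ± 0.09, 0.31), for which the value was farther from 0 than at P5, as it was for BMP6 (-0.30 ± 0.23 against -0.09 ± 0.23). BMP5, NOG and GREM1 did not keep the single direction they had at P5. On the log2 scale, MES minus EPI was 2.08, -0.17 and -0.22 for BMP5. It was 0.26, -0.01 and -1.61 for NOG and 0.53, -0.51 and -0.87 for GREM1. BMP2 was higher in MES in 1 pair and CHRD in 2. The marker sums of these fractions are given above for neural crest, and the 6 neural progenitor markers summed to 324, 147 and 120 TPM in EPI and to 202, 97.6 and 50.5 in MES. Again no member and no gene was called (0.00%). In edgeR 2 members and 2261 of 18885 genes had an unadjusted p under 0.05, and DESeq2 called no member. The test of the difference between P8 and P5 gave -1.59 ± 0.64 for BMP4 (unadjusted p = 0.037 in edgeR, adjusted p = 0.82), and no member passed it, so a difference between the passages was not shown. BMPER at P8 was carried by differentiations 2 and 3 in both fractions, with 17.3, 1248 and 585 in EPI and 22.2, 689 and 219 in MES.

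Genes whose course was most like each member's were ranked by Pearson's r of log2 CPM (counts scaled to library size) over the 35 whole cultures, among 13345 named genes with the same minimum mean. These libraries share 1 line and 3 differentiations, and r describes them only. BMP4 was most like PRRX1 (r = 0.95), a mesenchymal homeobox gene, and NOG most like CDH6 (0.96), a cadherin of neural crest and dorsal neural tube. BMP7 was most like ZBTB47 (0.94), GREM1 was most like HOXC9 and HOXC6 (both 0.95), posterior homeobox genes, with SCUBE3 next (0.94), BMP6 was most like REPIN1 (0.90), CHRDL1 like MANSC1 (0.92) and BMP5 like TMEM132C (0.90), with BGN next (0.88). BMP2 was most like EPHA2 (0.87), CHRD like SORCS2 (0.84), with the guidance cue NTN1 beside it (0.84), and BMPER like CYBRD1 (0.81). With Spearman's coefficient these first-place genes ranked between 2 (EPHA2 and SORCS2) and 264 (CYBRD1), with REPIN1 at 246, TMEM132C at 34, HOXC9 at 31 and PRRX1 at 24.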

How the data were processed

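RNA from 47 samples of the H9 line was sequenced after poly(A) selection as 75 bp single-end reads. The authors deposited RSEM expected counts and TPM values per gene for each library; the submitters' processing notes name cutadapt 1.16, STAR 2.5.2b, RSEM 1.3.0 and GRCh38. The strand setting is not given in the sources used here. GENCODE 29 symbols matched 57447 of 58051 genes. The deposited expected counts (9.33% of values not whole) were rounded and tested with edgeR 4.0.16 (quasi-likelihood, TMM, filterByExpr) in R 4.3.3, blocked on differentiation and with p-values adjusted by Benjamini-Hochberg across the genes of each fit, in 2 fits: 35 whole cultures (21750 genes, 21 residual degrees of freedom) and 12 fractions (18885 genes, 6 residual degrees of freedom). The scripts were tested on simulated data. Normalized counts are counts divided by TMM size factors over all 47 libraries. TPM values deposited by the authors were used for sums, shares and orders, and for levels as an alternative.

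Calls needed significance at 1% after adjustment, a change of 2-fold or more, and 100 or more normalized counts on average in the libraries compared. Errors beside log2 changes are standard errors. All 10 members were tested in each comparison, and the passages name at least those with an unadjusted p under 0.05 in edgeR. From the pathway lists the genes named were those that passed, at most 4 in each direction by size. Further genes in counts of 5 or fewer were named after their values were seen. The members, lists and tests were chosen with earlier results of these data known. Likeness used log2 CPM. The series description ties each replicate number to an experiment that ran through all time points and gave its fractions. The numbers therefore pair the samples. Deviations of same-numbered fractions correlated at 0.65 (P5) and 0.78 (P8) on average. Those of whole cultures correlated at -0.01 for 36 h and t0, and at 0.01 for P3 and 36 h and for P9 and P8. They correlated at 0.18 for P5 and P3, 0.31 for P8 and P5 and 0.24 for P10 and P8. Alternatives were DESeq2 1.42.0, other size factors, filters and thresholds, TPM levels, Spearman's coefficient, no block, 1 fit of all libraries and leaving out each differentiation. Windows and motifs came from RefSeq promoters (GRCh38.p14).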

Additional observations from a re-analysis of the deposited data

How the results depend on the processing

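The 10 member log2 changes in each of 9 contrasts stayed on their side of the threshold in 1055 of 1094 alternatives. Calls were lost in 7 and gained in 32. The alternatives include other thresholds on the same fit. Only 5 member changes were called, all in P3 against 36 h, so a call could not be lost elsewhere. The 7 losses fell on BMP5, BMP6 and NOG. Of the 1055, 28 changed sign, all uncalled and with a reported value of at most 0.58 in size. Levels relative to t0 by TPM were within the replicate spread in 138 of 150 cases, and 19 of 60 likeness ranks stayed in the first 3. No P9 library of differentiation 3 was analysed here, so P9 without differentiation 1 or 2 rests on 1 library, assumed to vary like the others. The causes of the changes below were not tested.

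Pairing by differentiation was part of the design. Without the replicate block the number of members called was 4 for P3 against 36 h, 10 for any change and 0 for each of the other comparisons. For 36 h against t0, where none was called, DESeq2 called 2, a 5% threshold 2, no minimum of the mean 2 and the fit of all 47 libraries 1. For P8 against P5 (none called) DESeq2 called 3 and a 5% threshold 1. For P9 against P8 (none called) DESeq2, the fit of all 47 libraries and a 5% threshold called 1 each. For P5 MES against EPI (none called) DESeq2 and a 5% threshold called 3 each, and a fit of the compared fractions alone, added after seeing the data, called 0. For P10 against P8, leaving out the P10 library of differentiation 1 gave 3. Leaving out each differentiation in turn gave 0 to 2 members for 36 h against t0, 3 to 6 for P3 against 36 h, 0 to 2 for P8 against P5, 0 to 3 for P10 against P8, 0 to 1 for P9 against P8, 7 to 10 for any change, and 0 for P5 against P3 and for the fractions. Counts over all genes moved more: for P10 against P8 from 19 to 307 in DESeq2, 839 without the P10 library of differentiation 1 and 0 without differentiation 2 or 3; for 36 h against t0 from 589 to 83 without differentiation 2 and 92 without differentiation 3; and for P5 MES against EPI from 0 to 674 in DESeq2.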
